A study of Mus musculus with 15 samples.

Results

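The lens of the mouse embryo at E16.5 (E for embryonic day) was compared with whole embryos across all genes measured by RNA-seq. The comparison used the 3 E16.5 lens libraries and the 3 whole-body libraries, 6 of the 15 libraries in the series, chosen by their labels. Both groups were wild-type C57BL/6NTac mice, with no transgene or treatment named. Each E16.5 library was a pool of 17 lenses. Per the labels the whole-body libraries span E10.5 to E12.5, with no word on how embryos of different days were pooled. The lens was therefore also the older tissue, and in this comparison tissue and age cannot be told apart. The other 9 libraries, 3 each from E10.5, E12.5 and E14.5 lenses, entered the same fit and give the course within the lens. Libraries of a group are named biological replicates, without mention of separate litters, so p-values measure the spread between these libraries.

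The lens holds an epithelium of dividing cells at its front and elongated fibre cells behind it. Fibre cells leave the cell cycle, fill with crystallins, couple through connexins and aquaporin, and later degrade their nuclei and organelles, so that light passes unscattered. The transcription factors Pax6, Prox1, Maf, Hsf4, Foxe3 and Pitx3 set up these programs, and FGF, BMP and Wnt signals from the surroundings steer them.

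Values are FPKM, fragments scaled to transcript length and library, summed over the transcripts of a gene. The depth behind them is unknown. Fold changes are on the log2(FPKM + 1) scale, given as estimate ± SE with limma's adjusted p, and changes of low genes come out too small on it. A gene counts as called at an adjusted p under 0.05. Levels are compared between genes in FPKM only, which is per length. Of 14532 genes tested, 80.2% were called, 5348 as higher in the lens (36.8% called higher) and 6300 as lower (43.4% called lower). The 3 lens and 3 whole-body libraries did not overlap in 84.9% of genes. With a 2-fold minimum 2688 were higher (18.5%) and 3804 lower (26.2%). So large a share was called that a list is read here against these percentages and against the median log2 fold change of all genes, -0.11. The upper end reached further than the lower one for the largest differences. A difference of at least 64-fold was found for 81 higher and 34 lower genes, and one of at least 16-fold for 264 higher and 279 lower genes. A level under 1 FPKM in all 3 lens libraries, with at least 1 FPKM in all 3 whole-body libraries, was found for 1486 genes, and the reverse for 407. In whole tissue, fewer cells of a type and less RNA per cell cannot be told apart.

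The summed FPKM ran from 1415417 to 1626263 in the lens and from 706887 to 735902 in whole body, while the median gene had 19.82 to 20 FPKM in the lens and 20.7 to 21.4 in whole body. Crystallins held 28.2%, 30.4% and 37.3% of the sum in lens replicates 1, 2 and 3. The crystallins Cryaa and Cryba1 were listed at 0 in replicates 1 and 2, which is read below as failed estimates. The summed FPKM and crystallin share of those replicates therefore leave them out. With crystallins left out and all totals made equal, the median of all genes moved to -0.58, and 3410 genes were higher and 8732 lower, so 28.1% of the called genes were higher in place of 45.9%. For many lists near balance the counts under this scaling or under quantile normalization are therefore given as well. A list without them can still depend on the scaling.

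**Figure D1:**
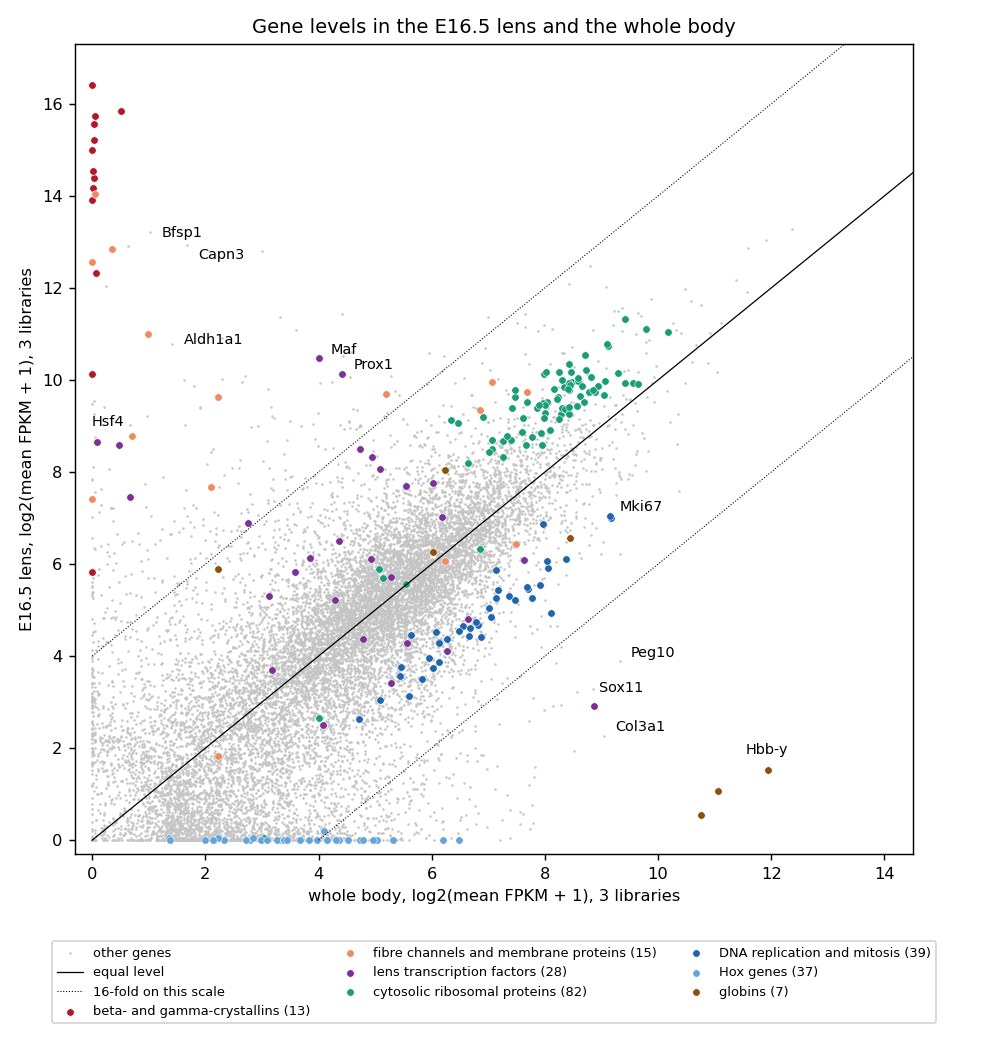
Mean level of each tested gene in the 3 whole-body libraries (x axis) and the 3 E16.5 lens libraries (y axis), both as log2(mean FPKM + 1), with the number of genes per coloured list in parentheses. Crystallins lie at the upper left, Hox genes along the lower edge, ribosomal proteins above the line of equal level and replication genes below it.

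Crystallins are the structural proteins that give the lens its refraction, and they headed the list of differences. All 5 beta-crystallins and all 8 gamma-crystallins tested were higher in the lens, with median log2 fold changes of 14.35 and 14.74. Cryga had 82097, 98586 and 78784 FPKM in the lens libraries and was listed at 0 in all 3 whole-body libraries. It had the highest mean FPKM of the tested genes in the lens. Crybb1 had 46792, 56086 and 41902 FPKM in the lens against 0.04, 0.0 and 0.04 in whole body, and differed on the log2 scale by 15.51 ± 0.20 (adjusted p = 8.85e-17). Crybb3 had 59040, 63888 and 54633 FPKM against 0.38, 0.53 and 0.35, a difference of 15.35 ± 0.20 (adjusted p = 8.5e-17). For both genes the lens libraries were all far above the whole-body libraries, with no overlap. Within the gamma family the lens means were 86489 FPKM for Cryga, 54907 for Cryge, 38117 for Crygb, 32640 for Crygd, 23655 for Crygf, 15474 for Crygc and 5110 for Crygn. Cryga to Cryge sit within chr1:65048554-65103373 (mm10, GENCODE vM21), and as near-identical copies they can share reads, so their separate levels are uncertain. Crygs, on chr16, was lower than all of these with 1184, 1350 and 804 FPKM and was listed at 0 in whole body.

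Cryaa and Cryba1, a lens-restricted alpha-crystallin and a beta-crystallin, could not be tested. Cryaa was listed at 0 in E16.5 replicates 1 and 2 and at 140912 FPKM in replicate 3, and Cryba1 at 0, 0 and 101407 FPKM. Beside such a replicate the zeros are read here as failed estimates. At E14.5 Cryaa again had 111417 FPKM in replicate 1 and was listed at 0 in replicates 2 and 3, while Cryba1 had 83497, 81759 and 78722 FPKM. Nufip2, which is not a lens gene, had the same pattern with 0, 0 and 82.88 FPKM, against 65.95, 70.04 and 64.65 in whole body. Without Cryaa and Cryba1 crystallins held 28.2%, 30.4% and 26.4% of the sum in E16.5 replicates 1, 2 and 3. In replicates 1 and 2 the share was the same with them, since both were listed at 0.

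Among the alpha-crystallins and small heat shock proteins, a family of chaperones that hold unfolded proteins, 5 of 7 tested genes were higher and 2 lower. Cryab, the second alpha-crystallin, had 7553, 7691 and 6185 FPKM in the lens against 6.93, 7.42 and 6.77 in whole body (log2 fold change 9.79 ± 0.14, adjusted p = 1.53e-16). Hspb2, which lies head to head with Cryab on chr9, had 28.96, 25.68 and 32.16 FPKM against 2.27, 2.80 and 2.85. The ranges do not overlap, but the annotated genes overlap on opposite strands, and the strand setting of the counting is not given, so the Hspb2 level is uncertain. Hspb3 was higher by 5.16 ± 0.20 and the heart-type Hspb7 lower, at -3.60 on the log2 scale. Of the enzyme-like relatives, 5 of 8 were higher and 3 lower (3 and 3 with crystallins left out). Grifin, a lens galectin, had 422, 461 and 415 FPKM against 0.04 in each whole-body library. Crym, a thyroid hormone-binding crystallin relative, went the other way, with 0.11, 0.0 and 0.53 FPKM against 12.77, 8.90 and 11.52.

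The starts of these genes were searched for the Maf half-site, the letters TGCTGA on either strand, since Maf binds elements with this core in crystallin promoters. Promoters are the 250 bases before the annotated start, from RefSeq (GRCm38.p6), where 10351 of the tested genes had an entry. The motif was in 16.1% of all 32851 promoters and in 15.4% of the tested genes. Among genes at least 64-fold higher in the lens it was in 24 of 60 (40%), and among those without the crystallins in 16 of 48 (33.3%). From 16-fold to under 64-fold it was in 21.8%, from 4-fold to under 16-fold in 18.6%, and from 2-fold to under 4-fold in 15%. Genes at least 16-fold lower had it in 17.4%. Of the crystallins tested, 4 of 5 beta-crystallins and 4 of 8 gamma-crystallins held it. Crybb2, Crygb, Crygd, Cryge and Crygf did not. A match is a description of letters and not a bound site or a cause. The last 150 bases before the start are shown for 3 of the highest beta-crystallins and for Mip, with each half-site, on either strand, in capitals.
Crybb1, chr5:112255670-112255819, plus strand: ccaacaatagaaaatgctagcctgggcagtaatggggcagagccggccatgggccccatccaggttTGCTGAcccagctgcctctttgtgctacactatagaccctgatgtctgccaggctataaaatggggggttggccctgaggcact
Cryba4, chr5:112252519-112252668, minus strand: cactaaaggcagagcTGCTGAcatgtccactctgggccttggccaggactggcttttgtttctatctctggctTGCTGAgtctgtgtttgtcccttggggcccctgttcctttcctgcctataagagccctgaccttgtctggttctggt
Crybb3, chr5:113081585-113081734, minus strand: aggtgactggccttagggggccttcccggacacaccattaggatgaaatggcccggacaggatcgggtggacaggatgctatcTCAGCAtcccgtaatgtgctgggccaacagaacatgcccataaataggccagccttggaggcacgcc
Mip, chr10:128225660-128225809, plus strand: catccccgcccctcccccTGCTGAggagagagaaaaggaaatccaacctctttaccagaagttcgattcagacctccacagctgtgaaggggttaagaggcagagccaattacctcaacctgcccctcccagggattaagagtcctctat
Counted back from the start, the first base of the motif lies at 84 in Crybb1, at 77 and, further out, once more in Cryba4, at 67 in Crybb3 and at 132 in Mip. Cryba4 holds another at 182, outside the stretch shown. The Crybb3 match is on the opposite strand. Cryab, Hsf4, Maf, Dkk3 and Pla2g16 had no promoter entry.

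**Figure D2:**
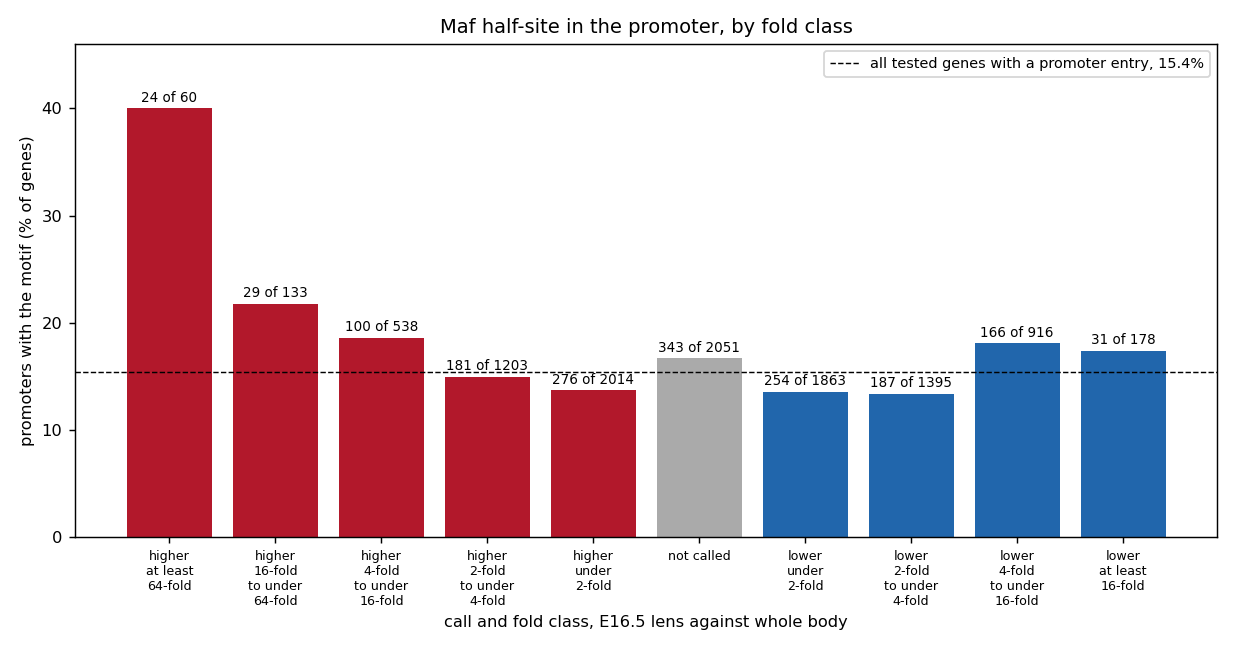
Share of genes whose promoter holds the Maf half-site (y axis, percent) in each call and fold class of E16.5 lens against whole body (x axis), with the number of genes above each bar and the share over all tested genes as a dashed line. The class at least 64-fold higher stands at 40%, and the other classes lie between 13.4% and 21.8%.

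Of the fibre channels and membrane proteins, 12 of 15 were higher and 1 was lower, with a median of 5.58. Gja3, a connexin of the gap junctions between fibre cells, had 1949, 2231 and 1921 FPKM in the lens against 1.08, 0.83 and 1.0 in whole body. Mip, the fibre aquaporin, had 6870, 8358 and 6830 FPKM against 0.15, 0.32 and 0.35 (log2 fold change 12.49 ± 0.19, adjusted p = 2.56e-16). Lim2, a fibre junction protein, reached 5963, 6604 and 5465 FPKM and was listed at 0 in whole body. The lincRNA gene Gm26847, at 7254, 8557 and 7280 FPKM, overlaps the end of Mip on the opposite strand (chr10:128230590-128232790), so its reads and those of Mip cannot be told apart. Slc24a4, a sodium, calcium and potassium exchanger, was higher by 8.09 ± 0.20 and the amino acid transporter Slc7a8 by 5.58 ± 0.16. Gja1, the connexin of the lens epithelium and of many other tissues, was the lower member, with 106, 72.0 and 78.8 FPKM against 192, 169 and 177.

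The skeleton of the fibre followed the same division between lens-type and general members. Of 29 genes 18 were higher and 9 lower (16 and 12 with crystallins left out). Bfsp2, one of the 2 proteins of the beaded filament found in lens fibres, had 4221, 4938 and 3517 FPKM against 0.17, 0.27 and 0.12 (log2 fold change 11.79 ± 0.20, adjusted p = 8.95e-16). Prx, the periaxin scaffold at fibre membranes, had 277, 273 and 259 FPKM against 7.40, 7.27 and 8.50. Des, the muscle intermediate filament, was lower, at -4.92, Nes, that of neural progenitors, at -2.39, and the tropomyosin Tpm1 at -2.32 on the log2 scale. No lens library overlapped a whole-body library in any of these genes, as in 84.9% of all genes tested.

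The lens capsule is a thick basement membrane laid down by the lens cells themselves. Of its 24 genes 15 were higher and 5 lower. The collagen IV chains Col4a6 (595, 665 and 605 FPKM against 13.8, 17.6 and 13.5) and Col4a5 (773, 891 and 766 against 42.5, 41.6 and 41.1) stood out, with log2 fold changes of 5.29 ± 0.17 and 4.24 ± 0.16. Nid1, the nidogen that ties laminin to collagen IV, had 2476, 2680 and 2787 FPKM against 122, 127 and 129. Lower were Lamc3, Col18a1 and Agrn, at -3.20, -2.33 and -2.06. Interstitial collagens of connective tissue ran the opposite way, with 16 of 20 lower and 2 higher, and a median of -3.52. Col3a1 had 4.84, 1.10 and 5.46 FPKM against 513, 543 and 528. The exceptions were Col13a1, a membrane collagen, with 39.8, 48.6 and 50.0 FPKM against 6.82, 7.45 and 9.08, and Col6a3, a chain of the microfibrillar collagen VI, with 226, 221 and 208 against 17.5, 21.7 and 21.2. Among integrins, which anchor cells to this matrix, Itga2 (3.51 ± 0.14), Itga6 (2.82 ± 0.14) and Itgb5 (2.36 ± 0.11) were higher. Of the 20 integrins 6 were higher and 12 lower (7 and 9 after quantile normalization). E-cadherin, Cdh1, was higher by 3.20 ± 0.10 and Cdh11, the mesenchymal cadherin, lower, at -5.17.

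**Figure D3:**
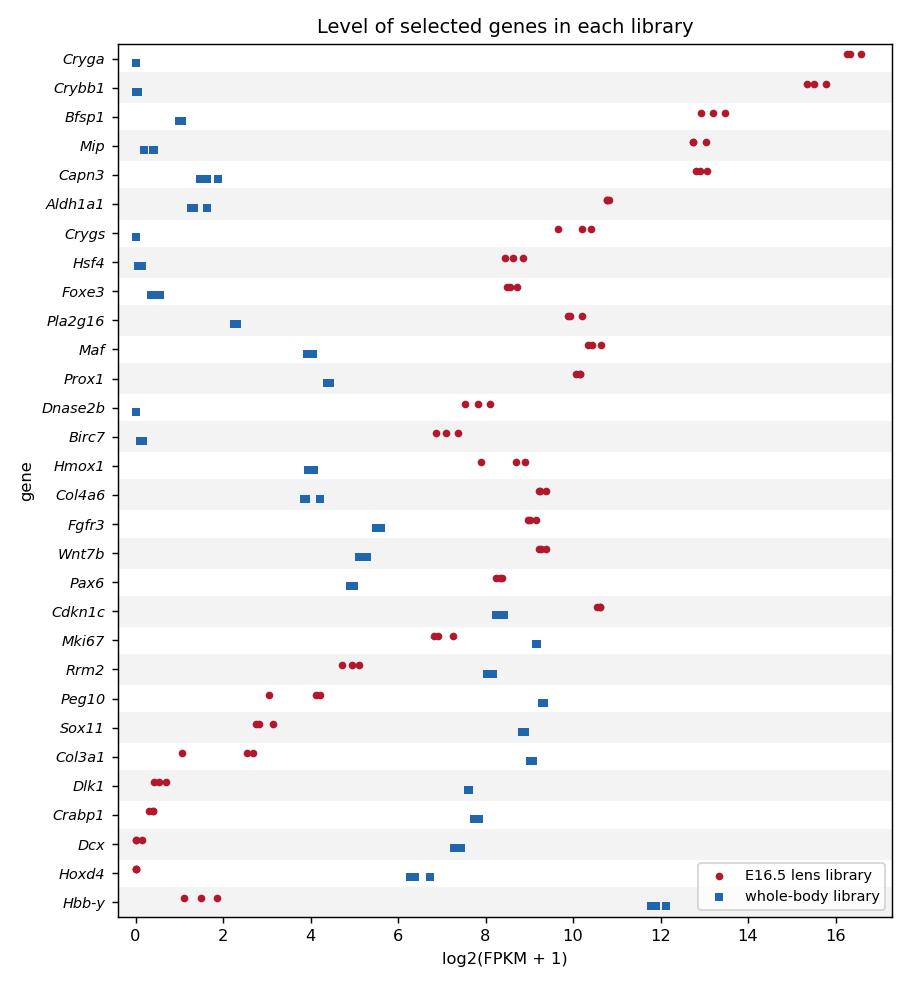
Level of selected genes in each library as log2(FPKM + 1), with E16.5 lens libraries as red circles and whole-body libraries as blue squares. The groups overlap in none of these genes. The genes were picked with their values in view, in part by a rule that requires no overlap. Over all tested genes the groups did not overlap in 84.9%.

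Lens transcription factors were 20 of 28 higher and 8 lower, with a median of 1.95. Maf had 1290, 1589 and 1373 FPKM in the lens against 15.6, 14.1 and 15.5 in whole body (log2 fold change 6.46 ± 0.14, adjusted p = 1.23e-14). Prox1 had 1067, 1151 and 1139 FPKM against 20.5, 20.6 and 19.9 (5.71 ± 0.13, adjusted p = 1.72e-14). These were the most abundant of the lens factors given here, above Pax6 with 330, 303 and 322 FPKM, Foxe3 with 375, 356 and 423, and Pitx3 with 166, 177 and 184. Foxe3 and Pitx3 act in the lens epithelium, and both were under 1 FPKM in each whole-body library. Sox1, which drives gamma-crystallin genes, had 325, 385 and 377 FPKM against 27.3, 24.03 and 25.5. Its relatives of early progenitors were lower, Sox2 with 17.6, 15.7 and 15.8 FPKM against 87.1, 71.7 and 70.8, and Sox11 with 6.11, 5.74 and 7.77 against 478, 453 and 459. Sox11, at -5.95 ± 0.19, was the furthest down of the list. Mab21l2, also lower, spread widely among the lens libraries, from 3.05 FPKM in replicate 3 to 16.43 in replicate 1.

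RNA-binding proteins of the lens include Tdrd7 and Caprin2, parts of RNA granules, and Rbm24 and Celf1, which bind fibre mRNAs. Of the list 6 of 11 were higher and 2 lower (5 and 5 with crystallins left out). Tdrd7 had 2548, 2981 and 2395 FPKM against 9.16, 9.70 and 8.07 (8.05 ± 0.18, adjusted p = 1.33e-14). Caprin2 (2749, 3093 and 2461 against 20.97, 21.11 and 19), Rbm24 (537, 570 and 542 against 10.98, 10.02 and 9.78) and Celf1 (1283, 1339 and 1257 against 281, 276 and 261) were also clear of whole body in every library. The neuronal Elavl2 was lower, at -4.07. RNA-binding proteins of the early embryo and their let-7 partners were 8 of 10 lower, with Trim71 at 0.10, 0.22 and 0.31 FPKM against 36.6, 39.2 and 32.2, and Lin28a at 0.69, 1.13 and 0.84 against 46.8, 45.5 and 39.4. The exception was Arid3b, with 127, 148 and 131 FPKM against 49.9, 50.6 and 47.8.

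All 39 genes of DNA replication and mitosis were lower, by at least 2-fold each, with a median of -2.07. No gene of the list was higher under any scaling run. Rrm2, the small subunit of the enzyme that makes deoxynucleotides, had 29.7, 25.3 and 33.4 FPKM in the lens against 287, 274 and 263 (-3.18 ± 0.13, adjusted p = 8.19e-12). Mcm5, a subunit of the replicative helicase, had 38.8, 29.6 and 43.5 FPKM against 222, 203 and 223 (-2.52 ± 0.14, adjusted p = 3.24e-10). Ttk, a spindle checkpoint kinase, had 7.01, 6.08 and 10.19 against 48.1, 47.9 and 46.8. In all 3 genes replicate 2 was the lowest and replicate 3 the highest lens library, and none came near whole body. At E10.5, by contrast, 9 of these genes were higher and 2 lower in the lens than in the same whole-body libraries (24.6% of all genes called higher and 31.2% lower), with a median of 0.10. From E14.5 to E16.5 alone 33 of the 39 were lower, where 4.03% of all genes were. E2F factors drive many of these genes, and their motif, the letters TTTGGCGC or TTTCCCGC on either strand, was in 5 of the 34 list genes with a promoter entry (14.7%), in 2.8% of tested genes and in 1.3% of all promoters. The promoters of Rrm2, Mcm2, Mcm3 and Cdk1 held no match. A match is again a description of letters and not a bound site. The 150 bases before the start of the helicase subunits Mcm5 and Mcm6 are shown with the motif in capitals, at 149 bases before the start on the opposite strand in Mcm5, and at 110 and 47 in Mcm6.
Mcm5, chr8:75109359-75109508, plus strand: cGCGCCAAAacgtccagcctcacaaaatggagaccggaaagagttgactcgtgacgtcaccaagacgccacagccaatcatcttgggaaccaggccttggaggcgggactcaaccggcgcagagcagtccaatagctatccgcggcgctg
Mcm6, chr1:128359706-128359855, minus strand: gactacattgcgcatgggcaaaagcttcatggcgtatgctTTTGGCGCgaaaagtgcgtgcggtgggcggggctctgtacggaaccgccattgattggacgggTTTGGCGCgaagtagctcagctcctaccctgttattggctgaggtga

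Genes of cell cycle exit were mixed, with 12 of 23 higher and 7 lower and a median of 0.27. With crystallins left out 8 were higher and 11 lower (median -0.20). Cdkn1c, the cyclin-dependent kinase inhibitor of differentiating fibres, had 1496, 1566 and 1579 FPKM against 342, 300 and 321 (2.27 ± 0.12, adjusted p = 1.86e-10). Gadd45b (42.6, 51.8 and 36.5 against 2.09, 2.24 and 2.16) and Ccng1 (177, 203 and 149 against 41.4, 38.0 and 42.0) were higher as well. Cdkn1a, another inhibitor of the same family of kinases, was lower, with 1.68, 0.71 and 0.01 FPKM against 9.72, 11.22 and 10.24.

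Fibre cells take apart their nuclei and organelles, and enzymes known in these steps were among the largest differences. Dnase2b, the acid nuclease that digests fibre DNA, had 226, 275 and 183 FPKM and was listed at 0 in whole body. Trex1, another DNase, had 104, 115 and 73.6 FPKM against 17.2, 20.7 and 19.5. Yet the nuclear breakdown list as a whole was 4 higher and 7 lower of 15 (3 and 12 with crystallins left out). The lower members were mostly parts of the nuclear envelope, such as lamin B1, Lmnb1 (68.8, 61.5 and 78.5 against 413, 388 and 385), and Syne2 (-2.69 ± 0.22). Of the mitophagy and autophagy genes 20 of 25 were higher and 2 lower, with a median of 1.24 (0.71 with crystallins left out). Pla2g16, the phospholipase that lyses organelle membranes in the lens, had 974, 1171 and 945 FPKM against 3.76, 3.91 and 3.99 (7.71 ± 0.15, adjusted p = 5e-15). Optn, an autophagy receptor, had 145, 163 and 131 against 6.21, 5.60 and 5.25. The kinase Ulk1 and Atg5, both of early autophagy, were lower, at -0.90 and -0.59.

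Proteases and their inhibitors split by member. Of 18 calpains and caspases 10 were higher and 7 lower (median 0.47), but 8 and 9 with crystallins left out (median -0.04). Capn3, the calpain with a lens form, had 7172, 8538 and 7653 FPKM against 2.12, 1.76 and 2.68 (11.26 ± 0.22, adjusted p = 3.5e-15). Birc7, an inhibitor of apoptosis, had 135.14, 164 and 115 FPKM against 0.08, 0.12 and 0.08. Capn6, a calpain without protease activity, had 0.84, 0.68 and 0.21 against 170, 160 and 169.

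Among signalling genes most family members were lower in the lens while a few were high. Of the FGF genes 7 of 21 were higher and 13 lower. Fgfr3, a receptor of fibre differentiation, had 518, 572 and 500 FPKM against 44.1, 46.2 and 47.9, and Fgfrl1, a receptor without a kinase, had 386, 480 and 370 against 29.8, 29.2 and 31.4. The FGF target Etv5 was higher by 2.15 ± 0.11, and the feedback inhibitor Il17rd lower, at -4.34. Of BMP and TGF-beta genes 26 of 34 were lower. The ligand Tgfb2 was an exception, with 126, 120 and 134 FPKM against 46.5, 44.3 and 47.5, and so was the target Id2, while the ligands Bmp4 and Bmp5 were lower, at -3.53 and -3.10.

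Of the Wnt genes 28 of 36 were lower and 7 higher. Dkk3, a secreted Dickkopf protein, led them with 2192, 2436 and 1898 FPKM against 11.1, 11.4 and 11.2 (7.47 ± 0.15, adjusted p = 4.2e-15). The ligands Wnt7a (179, 222 and 178 against 10.9, 8.78 and 9.86) and Wnt7b (614, 669 and 592 against 36.8, 33.5 and 38.3) were higher by 4.16 ± 0.25 and 4.07 ± 0.16. Lef1, a transcription factor of the pathway, and the receptor Fzd10 were lower, at -4.26 and -4.82. Notch genes had 14 of 19 lower. The ligand Jag1 was higher, with 532, 589 and 578 FPKM against 44.4, 44.5 and 42.5, and the ligands Dll1 and Dll3 were lower, at -4.13 and -3.96. Eph receptors and ephrins had 14 of 20 lower and 3 higher. Epha2, which orders fibre cells, had 148, 172 and 141.5 FPKM against 9.04, 9.46 and 8.47, and the related receptors Epha3 and Epha4 were at 0.11 to 1.27 FPKM in the lens and at 67.1 to 88.2 in whole body.

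Retinoid genes held one of the largest single differences. Aldh1a1, a retinaldehyde dehydrogenase related to the eta-crystallin of elephant shrews, had 1739, 1804 and 1741 FPKM against 2.09, 1.40 and 1.51 (9.38 ± 0.18, adjusted p = 2.56e-15). Its near copy Aldh1a7 had 231, 209 and 266 FPKM against 1.12, 1.20 and 1.78, and since near copies can share reads the separate levels are uncertain. The retinoic acid-binding proteins Crabp1 (0.32, 0.23 and 0.32 against 230, 211 and 223) and Crabp2 (2.32, 2.03 and 1.68 against 234, 217 and 227) were at the other end. Of the 20 retinoid genes 3 were higher and 14 lower.

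Housekeeping machinery moved by smaller amounts, and here the scaling mattered. Of 82 cytosolic ribosomal proteins 78 were higher and 3 lower, with a median of 1.37. With crystallins left out 72 were higher and 5 lower (median 0.84), and after quantile normalization 57 and 8 (0.52). Rpl29 had 554, 592 and 544 FPKM against 82.3, 87.7 and 69.9, and Rps18 had 886, 867 and 866 against 196, 164 and 170. The 3 lower entries, Rps12l2, Rps3a2 and Rpl7l1, are gene copies or relatives rather than the standard ribosomal genes, and near-identical copies can share reads. The excess was already present at E10.5, where 77 of the 82 were higher than in the same whole-body libraries. Across annotation classes, 244 of 283 processed pseudogenes were lower and 17 higher, with a median of -1.62, against -0.09 for the 12775 protein-coding genes. Being copies, processed pseudogenes can share reads with their parent genes, so the levels of both are uncertain. The part of such sharing in these counts, or in those of the ribosomal proteins, was not tested. Translation factors were 42 of 64 higher and 11 lower, but 20 higher and 28 lower with crystallins left out. Eif5b, which joins the ribosomal subunits, had 1506, 1716 and 1284 FPKM against 215, 197 and 184 and stayed higher under each scaling.

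Energy and redox genes leaned to the lens. Of 88 nuclear-encoded genes of the respiratory chain and ATP synthase 74 were higher and 4 lower, with a median of 1.05 (61 and 16 with crystallins left out). Ndufv3, a complex I subunit, had 209, 224 and 183 FPKM against 36.3, 34.7 and 37.4. The 8 mitochondrially encoded subunits had 6 higher and 1 lower with the deposited values, but 0 higher and 5 lower after quantile normalization, so their direction depended on the scaling. Of 23 glycolysis genes 16 were higher and 5 lower (median 0.81). The glucose transporter Slc2a1 had 1002, 933 and 1041 FPKM against 137, 130 and 130, and Slc2a3, another glucose transporter, had 2.95, 2.48 and 2.52 against 69.8, 75.7 and 66.5. Pgam2, the muscle-type phosphoglycerate mutase, had 520, 581 and 443 against 6.37, 6.43 and 6.92 (6.08 ± 0.23, adjusted p = 4.03e-12), and Ldhb, a lactate dehydrogenase, was lower, at -4.68. Antioxidant genes were 21 of 37 higher and 13 lower, which became 14 and 17 with crystallins left out. Gss, which completes glutathione, had 879, 970 and 844 FPKM against 6.80, 8.11 and 7.92 (6.71 ± 0.16, adjusted p = 2.41e-14), and Gstp1, a glutathione transferase, was higher by 4.51 ± 0.16.

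Protein turnover lists differed from each other. Of 39 lysosomal genes 29 were higher and 3 lower (median 1.03), with the protease Ctsd at 819, 883 and 752 FPKM against 101.5, 99.35 and 107. Of 35 proteasome subunits 28 were higher and 2 lower (median 0.70, and 0.17 with crystallins left out), with Psmb5 at 219, 257 and 231 against 34.5, 30.3 and 30.6. Chaperones were 16 of 29 higher and 8 lower, and 6 higher and 17 lower after quantile normalization. Ubiquitin and its conjugating enzymes were 19 of 42 higher and 15 lower, and 11 and 27 with crystallins left out. Hspa8, the constitutive Hsp70, stayed higher under each scaling, with 2741, 3102 and 2890 FPKM against 676, 558 and 560. Splicing factors were 36 of 54 lower and 8 higher, with a median of -0.54. Srsf1 had 227, 240 and 239 against 665, 636 and 613 (-1.43 ± 0.07, adjusted p = 5.24e-11). Chromatin remodelers and DNA methylation genes were 22 of 33 lower and 6 higher. Chd3, a remodeler ATPase, had 20.3, 13.5 and 18.3 FPKM against 301, 313 and 322, and Hells, of the DNA methylation machinery, 16.4, 15.3 and 19.1 against 141, 127 and 125. Core and linker histones were 15 of 26 higher and 8 lower, and 13 and 11 with crystallins left out. Their summed FPKM was lower in the lens, at 2152 to 2283 against 2391 to 2667. Hist1h2bc, a histone gene also read as polyadenylated RNA, had 99.2, 113 and 89.1 against 1.49, 1.72 and 1.70, and the variant H2afz was lower, at -1.23.

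**Figure D4:**
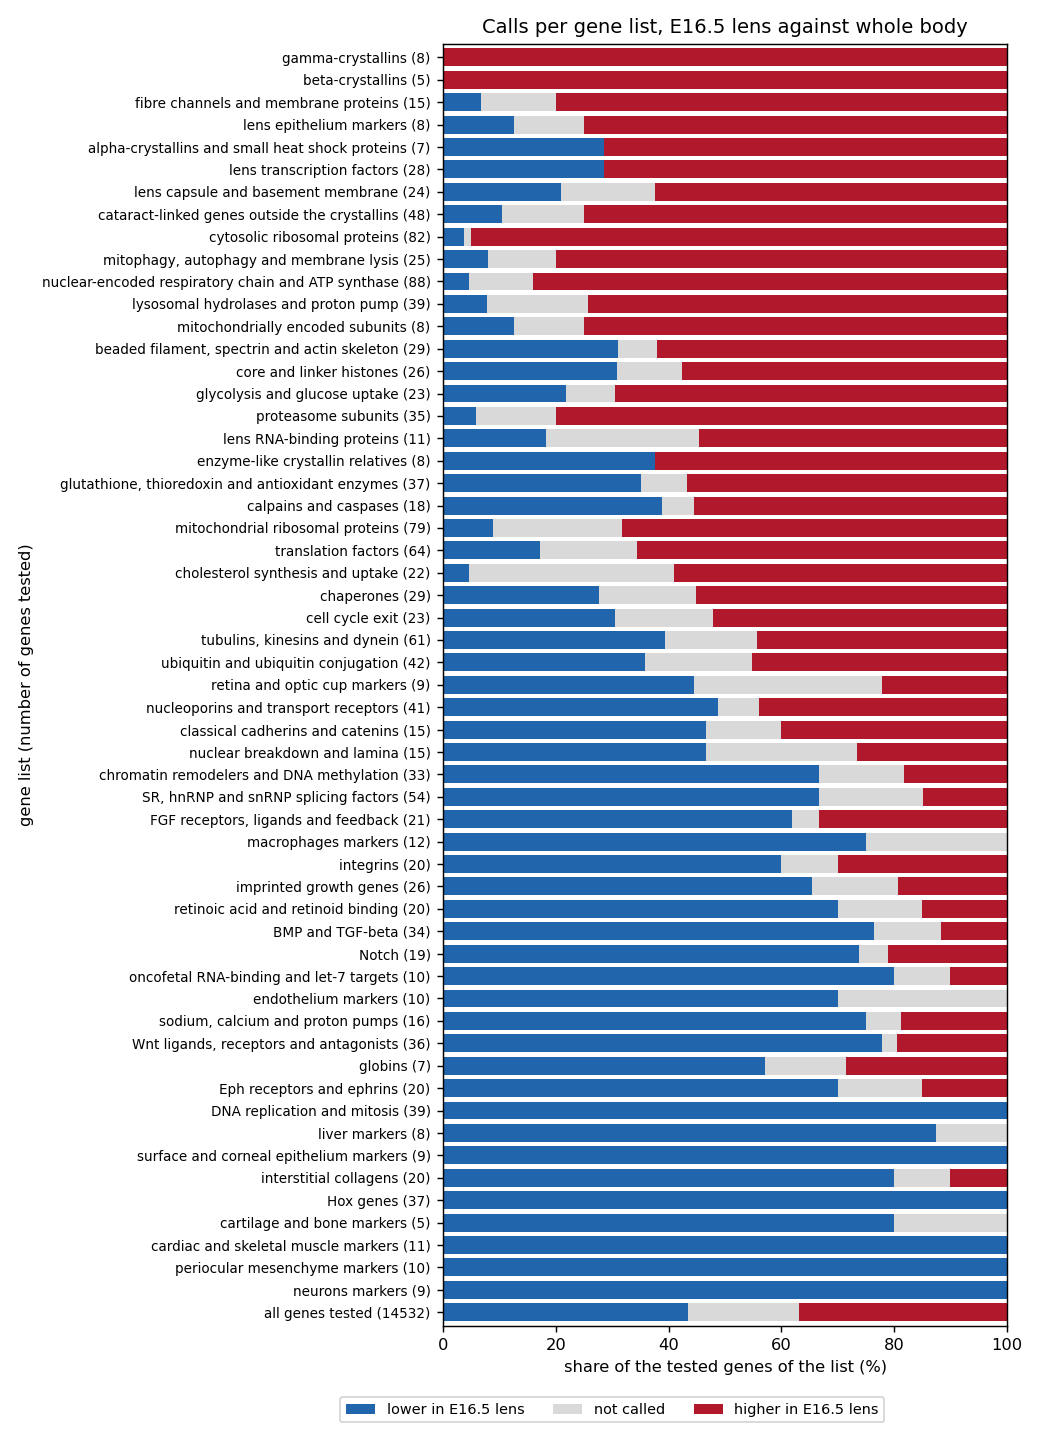
Share of tested genes called higher (red), lower (blue) or not called (grey) in the E16.5 lens against whole body for each gene list (y axis, number of genes tested in parentheses), ordered by the median log2 fold change, with all genes tested as the lowest bar. The beta- and gamma-crystallin lists are wholly red at the top, and the lists of replication, Hox, neuron, muscle and mesenchyme genes are wholly blue.

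**Figure D5:**
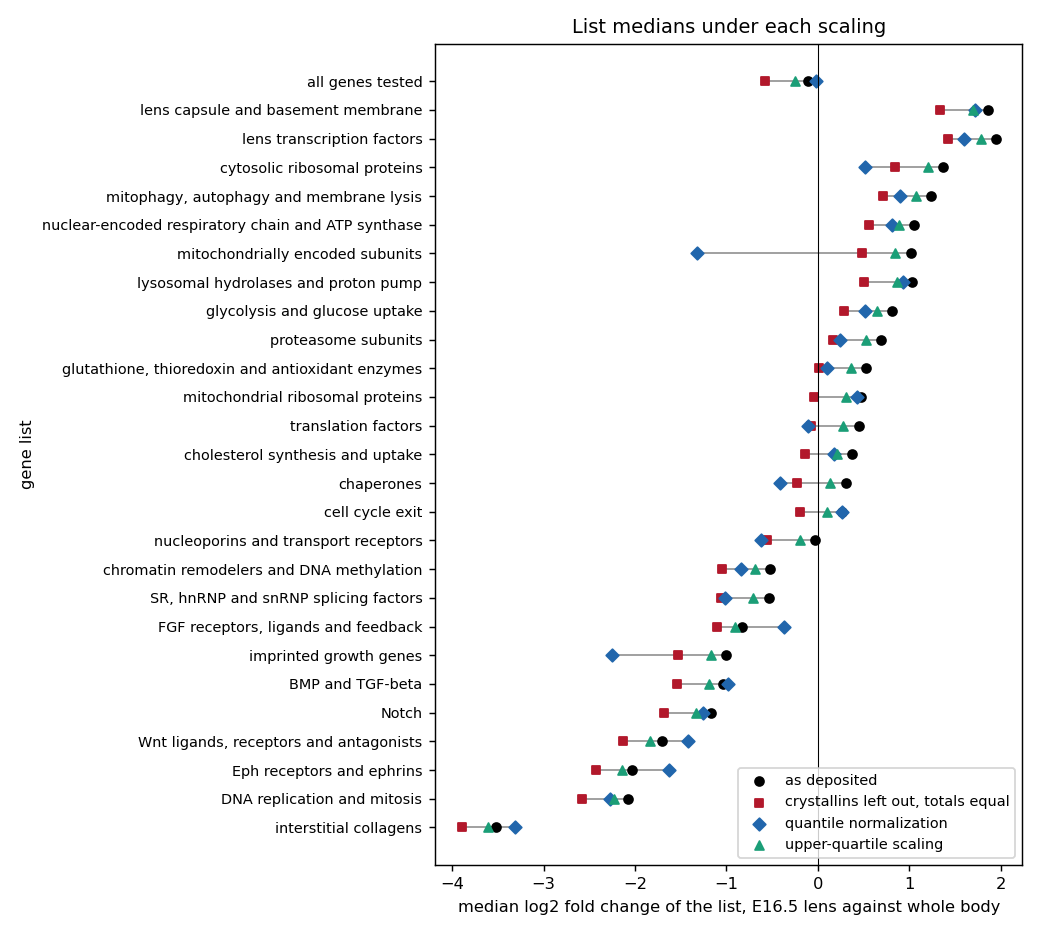
Median log2 fold change of each list (x axis) with the deposited values and under 3 other scalings, E16.5 lens against whole body. After quantile normalization lists shift by different amounts and in both directions: the mitochondrially encoded subunits go from 1.01 to -1.32, the imprinted genes from -1.004 to -2.25 and the FGF genes from -0.83 to -0.37.

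Genes with no or little signal in the lens marked the other tissues of the embryo. All 37 Hox genes, which pattern the trunk, were lower. Together they held 0.43, 0.34 and 0.0 FPKM in the lens libraries and 633, 662 and 631 in whole body, and 34, 35 and 37 of them were listed at 0 in the lens. Hoxd4 was listed at 0 in each lens library and had 76.2, 105 and 82.3 FPKM in whole body. Neuron markers were all lower (9 of 9, summing to 22.8 to 24.6 FPKM in the lens and to 883 to 957 in whole body), with Dcx, a microtubule protein of migrating neurons, at 0.10, 0.0 and 0.0 FPKM against 171, 155 and 171. Muscle markers were lower in 11 of 11, with the cardiac actin Actc1 at 0.21, 0.0 and 0.32 against 210, 219 and 210. The imprinted growth genes were 17 of 26 lower and 5 higher, with Peg10, needed for the placenta, at 17.5, 7.29 and 16.48 against 623, 649 and 645, and Dlk1 at 0.63, 0.45 and 0.35 against 197, 195 and 193. Meg3, an imprinted noncoding RNA of the same locus as Dlk1, was on the other side, with 500, 578 and 472 FPKM against 158, 249 and 181.

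Markers of tissues next to the lens were read in the same way, as a check of the labelled tissue. All 15 lens fibre markers tested were higher, and so were 6 of 8 lens epithelium markers. Periocular mesenchyme markers were all lower (10 of 10) and summed to 19.7, 12.6 and 22.8 FPKM in the lens and to 1445 to 1603 in whole body. Surface epithelium markers were lower in 9 of 9 (1.89 to 2.59 FPKM in the lens), and Trp63, which defines stratified epithelium, was listed at 0. Endothelium markers summed to 175, 110 and 179 FPKM in the lens, lower in 7 of 10, and macrophage markers to 16.6, 6.88 and 15.2, lower in 9 of 12, but in 3 of 12 after quantile normalization (median -0.94 and -0.05). Of 9 retina markers 2 were higher and 4 lower, with a median of 0.0, and they summed to 25.8, 20.4 and 11.9 FPKM in the lens and to 144 to 160 in whole body. Pigment cell markers were above whole body in sum, at 13.7, 8.01 and 6.78 FPKM against 2.08 to 3.0. Oca2 had 1.89, 1.59 and 2.90 FPKM and was listed at 0 in whole body. Of 4 pigment markers tested 2 were higher and 2 not called. The number higher was 1 with crystallins left out, 4 after quantile normalization and 1 to 2 when single libraries were left out. The part of these cells in any result above was not tested.

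Erythroid markers summed to 480, 349 and 675 FPKM in the lens and to 7593 to 9709 in whole body. Of 7 globins 2 were higher and 4 lower. The embryonic Hbb-y had 1.16, 1.80 and 2.63 FPKM in the lens against 4464, 3528 and 3799, and Hbb-bh1 and Hba-x were lower, at -10.18 and -9.99 on the log2 scale. The adult-type Hba-a2 was higher, with 51.5, 39.8 and 82.6 FPKM against 3.69, 3.27 and 3.98, and so was Hbb-bs, with 255.85, 188 and 341 against 87.9, 63.6 and 72.6. Other adult-type globins did not follow them: Hba-a1, named after its values were seen, was lower (mean 93.2 against 346 FPKM, -1.94 ± 0.35 on the log2 scale, adjusted p = 0.000115), and Hbb-bt was not called, with 70.8, 52.4 and 104 FPKM against 73.0, 62.6 and 55.8. Near copies among these genes can share their reads, so the separate levels are uncertain. The embryos also differed in age between the groups.

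Genes that set E16.5 apart from the previous stage were fewer. Against E14.5 lens, 868 genes were higher (5.97% called higher) and 586 lower (4.03%), and with a 2-fold minimum 233 (1.6%) and 42 (0.289%). The excess of higher genes without a fold minimum rested on the scaling, with 673 higher and 1233 lower when crystallins were left out, 664 and 764 after quantile normalization and 823 and 907 with upper-quartile scaling. With a 2-fold minimum it held under these scalings, at 196 and 42, 178 and 38, and 217 and 42. Both comparisons use the same E16.5 libraries, and each one's own values follow. Hspb1, a small heat shock protein, had 51.5, 47.1 and 23.9 FPKM at E16.5, 0.25 ± 0.12 at E14.5 (mean ± SD, n = 3) and 6.89, 4.85 and 5.99 in whole body. It was higher than E14.5 by 4.996 and than whole body by 2.54 ± 0.28 on the log2 scale. Hmox1, the heme oxygenase of stress responses, had 477, 413 and 238 FPKM against 33.4 ± 1.97 at E14.5 and 14.52, 14.28 and 15.79 in whole body. Alox15, a lipoxygenase, had 25.9, 13.3 and 13.6 FPKM against 0.14 ± 0.14 at E14.5 and at most 0.13 in whole body. Crygs (278 ± 10.7 at E14.5), Crybb2 (68.7, 66.4 and 31.6 FPKM, 11.8 ± 0.95 at E14.5, listed at 0 in whole body), Dnase2b (55.6 ± 8.25 at E14.5) and Birc7 were late as well, each higher than E14.5 by 1.96 to 2.42. In Hspb1, Hmox1, Crygs and Crybb2 replicate 3 was the lowest E16.5 library, and it stayed above E14.5 and whole body. The uncharacterised transcripts Gm13883 (42.1, 43.1 and 30.5 FPKM) and 4931440J10Rik (17.1, 19.4 and 8.21) were listed at 0 in whole body and averaged 1.73 ± 0.73 and 0.08 ± 0.14 FPKM at E14.5. Replicate 3 was the lowest E16.5 library in these transcripts, in Dnase2b and in Birc7 as well, though not in Alox15. Over all tested genes it also correlated more closely with each E14.5 library (r = 0.9842 to 0.9873) than replicates 1 and 2 did (0.979 to 0.9845). Gm13883 is annotated as antisense, and without the strand its reads and those of the partner gene cannot be told apart.

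Hspb1 responds to heat shock factors, to which the lens factor Hsf4 belongs. The heat shock element, the letters GAANNTTC, was in 6.7% of all promoters, in 6.1% of the tested genes, in 6.7% of those at least 64-fold higher and in 13.5% of those 16-fold to under 64-fold higher. Among the replication and mitosis genes, all lower in the lens, it was in 5 of 34 (14.7%). The Hspb1 promoter holds it at 117 and 97 bases before the start, in capitals here, and Dnase2b at 230.
Hspb1, chr5:135887769-135887918, plus strand: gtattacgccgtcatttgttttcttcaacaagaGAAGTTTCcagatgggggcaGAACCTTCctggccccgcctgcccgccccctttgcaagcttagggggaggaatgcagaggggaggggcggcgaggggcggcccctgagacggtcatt

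Maf, Foxe3 and Pax6 were not called between E14.5 and E16.5, with log2 differences of 0.24, -0.24 and -0.01. Foxe3 exceeded whole body by 8.11 ± 0.13 at E16.5 and by 7.76 at E10.5, and Pax6 by 3.37 ± 0.06 and 3.87. Hsf4, by contrast, exceeded it by 8.56 ± 0.19 at E16.5 and by 0.14 at E10.5. These stages were set against the same whole-body libraries.

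Transcript choice could differ between the tissues without a change of the gene's sum. Among 6665 genes with several transcripts and at least 10 FPKM in all 6 libraries, 398 had another main transcript in the lens than in whole body, and for 206 both were reference transcripts. Capzb, an actin-capping protein named after its values were seen, had 63.1%, 70.2% and 59.0% of its FPKM in 1 transcript in the lens and 2.26%, 0.14% and 0.97% in whole body. These shares rest on the authors' transcript estimates and had no test.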

How the data were processed

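Whole-tissue RNA-seq of 3 E16.5 lens and 3 whole-body libraries was compared, with 9 libraries of earlier lens stages in the same fit. The deposited values are FPKM per assembled transcript, for which the submitters' processing notes name TopHat2 2.0.9, Trimmomatic, Cuffnorm, Cufflinks and mm10. Step order, normalization setting and strand are not given in the sources used here. Depth is unknown, so no precision that depends on it is given. FPKM can be shifted for all genes when a few genes take much of a library, as crystallins do in the lens.

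From the 48306 transcripts, FPKM was summed per gene symbol without 172 transcripts annotated as exonic overlap on the opposite strand (class x). A minimum of 1 FPKM in any 3 of the 15 libraries removed 80 genes. Listed at 0 beside a replicate of at least 50 FPKM, Nufip2, Cryba1 and Cryaa were not tested either, leaving 14532. limma 3.58.1 in R 4.3.3 was run on log2(FPKM + 1) with 5 group means and 10 residual degrees of freedom, eBayes with trend, and Benjamini-Hochberg adjustment over all genes. The fit was tested on simulated data. Coordinates are from GENCODE vM21, and promoters from RefSeq (GRCm38.p6). Figures used Python 3.11.15, pandas 2.3.3 and matplotlib 3.10.9.

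The comparison and the gene lists were chosen with earlier results of these data known, so no list was tested as a set. Lists are described by counts and medians. Named genes were the 15 highest and 15 lowest called genes with at least 10 FPKM and no overlap between groups, per list up to 3 called members at either end and up to 2 uncalled ones, the 5 highest and 5 lowest against E14.5 by the first rule, and a fixed set of lens genes. The genes printed were picked from these with their values in view, and some genes are not reported here. Alternatives covered the pseudocount, the filter, 3 scalings, the fitted groups, the prior, a replicate block, class x transcripts and leaving out each library.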

Additional observations from a re-analysis of the deposited data

Results flagged for a closer look

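Between E10.5 and E16.5 the lens moved from one side of whole body to the other in 9 of the 152 named and tested genes. The named genes were picked with their values in view, and the same count over all genes is not given. The count of 9 of 152 can therefore not be read as many or few. Of all genes tested, 80.2% were called against whole body at E16.5. At E10.5, 24.6% were called higher and 31.2% lower. In each of the 9 genes, both stages differed from the same whole-body libraries by at least 2-fold in opposite directions, and the 2 stages differed in limma's direct contrast. The genes were chosen by these conditions. In this fit the stage difference equals the difference between the 2 whole-body contrasts, so its p-values are no separate evidence. Higher at the later stage were Pgam2 (a muscle-type phosphoglycerate mutase), Fgfr3 (an FGF receptor), Wnt7b and Wnt7a (Wnt ligands), Col6a3 (a collagen VI chain), Cdkn1c (a cell cycle inhibitor) and Hbb-bs (an adult beta-globin). Pgam2 went from -2.0 at E10.5 to 6.08 at E16.5, a stage difference of 8.08 (adjusted p = 4.01e-13). Fgfr3 went from -2.94 to 3.50, a difference of 6.43 (adjusted p = 1.82e-12). Wnt7b and Wnt7a went from -1.59 to 4.07 and from -1.19 to 4.16, differences of 5.66 and 5.35. Hbb-bs went from -3.62 to 1.76 (5.39), Col6a3 from -1.75 to 3.38 (5.13) and Cdkn1c from -1.20 to 2.27 (3.47). Crym and Lin28a went the other way, from 3.51 to -3.32 and from 1.58 to -4.58, with stage differences of -6.83 (adjusted p = 6.23e-11) and -6.16 (adjusted p = 3.54e-13). Crym is a thyroid hormone-binding protein and Lin28a blocks maturation of let-7 microRNAs.

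The 172 class x transcripts, left out of the gene sums, held signal above whole body. They summed to 3747, 4840 and 3652 FPKM in the lens (mean 4079.74) against 1118, 674 and 644 in whole body. In 107 of them all lens libraries were above all whole-body libraries and in 28 all were below. Over all tested genes the 2 groups did not overlap in 84.9%, so separation as such was not particular to these transcripts. The share of all genes in each direction is not given. Most of the sum came from 1 transcript at Filip1l, with 2324, 3292 and 2336 FPKM against 842, 361 and 351. Those at Tacc2 had 259, 310 and 245 FPKM against 0.0, 0.0 and 0.08. Those at Gja3, itself high in the lens, had 100, 108 and 91.2 FPKM against 0.0 in each whole-body library. The strand setting is not given, so reads of class x transcripts and of the genes they overlap cannot be told apart. Filip1l and Tacc2 are named after their values were seen.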

How the results depend on the processing

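When crystallins were left out and library totals equalised, 3410 genes were higher than whole body, 1668 of them by 2-fold, against 5348 and 2688, and 1591 were higher and 3963 lower than E10.5 lens by 2-fold, against 2493 and 2650. Genes lower than E14.5 by 2-fold numbered 90 with a pseudocount of 0.1 FPKM and 21 with only those 2 groups in the fit, against 42. The replicate block gave 5337 higher and 6279 lower genes against whole body. Samples with the same number did not deviate together (r = -0.0663, -0.0042 and -0.0286), so the numbers are not taken as pairs. Leaving out 1 library at a time gave 5099 to 5197 higher and 6003 to 6122 lower genes, and with a 2-fold minimum 2614 to 2732 and 3739 to 3821. Against E14.5 it gave 192 to 265 and 34 to 55, and without the minimum 514 to 865 higher and 293 to 551 lower genes, against 868 and 586 with all libraries. The counts without a minimum were 529 and 293 without E16.5 replicate 1, 514 and 297 without E16.5 replicate 2, 595 and 383 without E14.5 replicate 1, and 574 and 297 without E14.5 replicate 3. With only those 2 groups in the fit they were 387 and 134. Against E10.5 the 2-fold counts were 2413 to 2558 and 2584 to 2710.

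Of the 152 named and tested genes, 151 kept their direction and call against whole body under all 15 alternatives. After quantile normalization Atp2a2 turned to -0.037 (limma adjusted p = 0.739). These genes were picked with their values in view. Of all 309 called genes that the naming rule gives, 292 kept their call and direction and 7 turned under at least 1 alternative. The rule gives 391 tested genes, called or not. Of these 296 kept their status under all alternatives, and 95 lost a call, gained one or turned. Most of the rule's uncalled genes were therefore called under some alternative. The median of all genes, -0.11, became -0.25 with upper-quartile scaling and -0.02 with quantile normalization. Zeros, near-identical copies, overlapping genes and the unknown depth limit single values.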

Other observations

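Genes in which mutations cause cataract, crystallins set aside, were 36 of 48 higher than whole body and 5 lower, with a median of 1.43 on the log2 scale (31 and 11 with crystallins left out). The list holds many lens-restricted genes such as Mip and Lim2. The lower end was Unc45b, a myosin chaperone of muscle, with 0.21, 0.12 and 0.0 FPKM against 7.83, 8.79 and 8.07 (-3.06 ± 0.11, limma adjusted p = 2.23e-12).

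Most ion pump genes were lower in the lens, with 12 of 16 lower and 3 higher and a median of -1.45. Their summed FPKM was higher in the lens, at 1201 to 1323 against 974 to 993. The calcium pump Atp2b1 had 19.6, 15.8 and 22.1 against 113, 111 and 108. The beta subunit Atp1b3 was higher, with 277, 260 and 305 FPKM against 88.2, 85.5 and 87.8 (1.67 ± 0.07, limma adjusted p = 1.15e-11). Atp2a2, a calcium pump of the endoplasmic reticulum, was higher by 0.72 ± 0.11 with the deposited values. With crystallins left out it lost the call, at 0.19 (limma adjusted p = 0.0793), as it did after quantile normalization. Cholesterol genes were 13 of 22 higher and 1 lower, but 8 and 9 with crystallins left out. Insig1, which holds back cholesterol synthesis, had 186, 174 and 171 FPKM against 52.0, 49.1 and 53.0.

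Of 61 tubulin, kinesin and dynein genes 27 were higher and 24 lower, which became 17 and 36 with crystallins left out. Kif1a, a motor known from axons, had 885, 1145 and 877 FPKM against 55.9, 55.5 and 67.1 (3.997 ± 0.24, limma adjusted p = 7.86e-10). Kif5a, another motor of neurons, had 6.32, 5.52 and 3.68 against 43.6, 44.6 and 47.4. Of 229 solute carriers 82 were higher and 89 lower, with 58 and 122 when crystallins were left out and 101 and 79 after quantile normalization. Slc7a2, a carrier of arginine and lysine, had 404, 400 and 413 FPKM against 7.30, 7.43 and 7.77.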
